A study of Mus musculus with 30 samples.

Results

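MicroRNA genes whose products mark leukocytes or are induced in inflammation were followed through 5 organs of mice that lack Ftsj1 and of their wild-type counterparts. They were chosen by symbol, as the rows named Mir150, Mir155, Mir223, Mir342, Mir142, Mir142b, Mir146 and Mir146b, which gave 8 of the 2194 named features in each organ's table. Small RNA libraries had been made from spleen, heart, kidney, brain and liver of 3 Ftsj1-deficient mice (labelled Ftsj1_DF) and 3 wild-type mice (labelled WT), with 1 library per mouse and organ and 30 libraries in all. Every mouse was a male aged 4 months that had received no treatment. The labels name no strain and do not say how Ftsj1 was inactivated. They name 2 sets of brothers, one of 2 mice and one of 4 mice, and each set was divided equally between the Ftsj1_DF and WT mice. Of the 30 libraries 3 belonged to a batch labelled 2, namely 1 WT library each in heart, kidney and liver.

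Ftsj1 encodes a methyltransferase that adds 2'-O-methyl groups to the anticodon loop of some tRNAs. A microRNA gene is transcribed as a hairpin, from which 1 or both arms are cut out as mature microRNAs of 20 to 23 bases that lower the translation and stability of messenger RNAs paired to their seed, bases 2 to 8. Some microRNAs are made mainly by blood cells: miR-142 in nearly all of their lineages, miR-150 in mature lymphocytes and miR-223 in granulocytes and monocytes. Others are switched on when immune cells are stimulated, such as miR-155 and the miR-146 pair, and miR-146 in turn restrains signalling through NF-kB by targeting Traf6 and Irak1. In an organ made mostly of other cells, such microRNAs are usually read as the contribution of the blood and immune cells it holds. In bulk libraries such as these, fewer cells of a type and less of the microRNA per cell cannot be told apart.

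The mature sequences below, from RefSeq (GRCm38.p6), show how the members relate. Seeds are in capitals. RefSeq's symbol Mir146 stands for the gene of miR-146a. Of the mature sequences shown, miR-146a-5p and miR-146b-5p are the only ones that share a seed, and no other mature sequence of the RefSeq table had it. For Mir150 the RefSeq table used here held the 3p arm alone. Its 5p arm is therefore not shown, and its seed was not compared.
miR-146a-5p: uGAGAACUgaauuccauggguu
miR-146b-5p: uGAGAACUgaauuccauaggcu
miR-155-5p: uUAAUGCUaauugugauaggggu
miR-223-3p: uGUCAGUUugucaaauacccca
miR-342-3p: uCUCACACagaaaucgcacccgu
miR-150-3p: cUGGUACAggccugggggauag
miR-142a-5p: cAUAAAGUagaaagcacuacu
miR-142a-3p: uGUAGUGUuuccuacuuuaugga
miR-142b: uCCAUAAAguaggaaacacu

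The miR-146 pair are identical at 20 of 22 positions and differ by G18A and U21C, given as the base of miR-146a-5p, the position from the 5′ end and the base of miR-146b-5p. Both differences lie outside the seed. Their genes lie on different chromosomes, Mir146 on chromosome 11 and Mir146b on chromosome 19, where the RefSeq annotation (GRCm38.p6) places it within the lncRNA gene Gm36493. Mir155 lies on chromosome 16 within its host lncRNA Mir155hg, Mir223 on chromosome X within the lncRNA F630028O10Rik, Mir342 on chromosome 12 within the protein-coding gene Evl, and Mir150 on chromosome 7.

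Mir142 and Mir142b occupy the same place on chromosome 11 on opposite strands, which limits how their rows can be read. The Mir142 hairpin is shown with its mature arms in capitals, and the Mir142b hairpin with the stretch in capitals that is the reverse complement of the whole Mir142 hairpin.
Mir142 (plus strand): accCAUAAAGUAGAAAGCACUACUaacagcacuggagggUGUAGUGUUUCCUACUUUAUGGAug
Mir142b (minus strand): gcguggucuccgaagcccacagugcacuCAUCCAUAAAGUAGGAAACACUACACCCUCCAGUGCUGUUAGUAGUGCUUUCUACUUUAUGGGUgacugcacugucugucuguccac

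All 64 bases of the Mir142 hairpin lie within the 115 bases of the Mir142b hairpin, at its positions 29 to 92. The mature miR-142b of 20 bases is the reverse complement of positions 4 to 23 of miR-142a-3p. Mir142 was listed at 0 in all 5 of the authors' deposited tables, while Mir142b had a mean normalized count between 264 in brain and 39411 in spleen. Other RefSeq hairpins nested on opposite strands had the same form. Of 17 such nested pairs among the 959 hairpins matched to the tables, the inner hairpin was listed at 0 in every organ in all 17, and the outer one was counted in 16. Mir126b within Mir126a, Mir24-1 within Mir3074-1, and Mir136 within Mir3071 were pairs of this kind. The reads behind the Mir142b row can therefore not be assigned to miR-142b or to the arms of miR-142a from these tables, and the strand setting of the counting is not given in the sources used here.

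**Figure D1:**
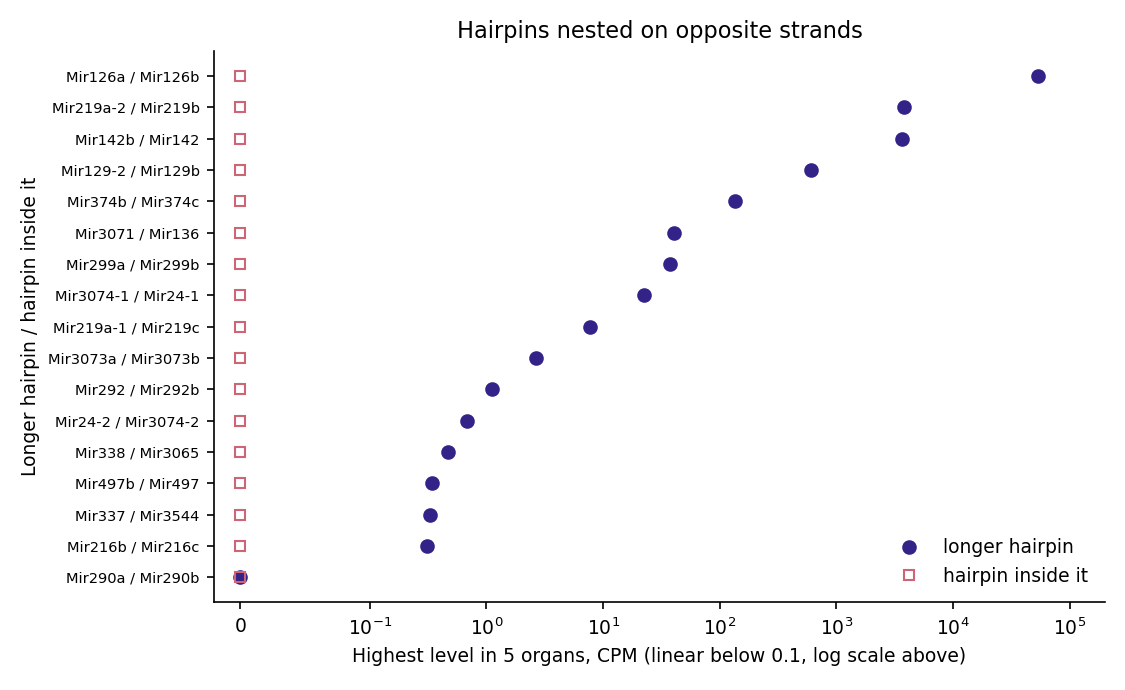
Highest level over the 5 organs, in CPM (counts per 1000000 of the organ's summed means) on an axis that is linear below 0.1 and logarithmic above, for the longer hairpin (filled circles) and the hairpin inside it (open squares) of 17 pairs nested on opposite strands. Every inner hairpin sits at 0, Mir142 among them, and the longer hairpin is above 0 in 16 pairs.

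The authors' deposited tables give, for each organ, a mean normalized count over its 6 libraries and a log2 fold change between the genotypes, with its standard error, and no value per library. The genotype in the numerator is not named, so fold changes are given by sign, and signs are set side by side on the assumption that all 5 tables used the same numerator. Mean normalized counts summed to between 8511372 in heart and 21787131 in kidney. Because each organ was normalized on its own, levels are given as CPM, counts per 1000000 of the organ's summed means. The mature products are of nearly 1 length, so counts were not divided by length. Defining microRNAs stood where the organ labels put them: Mir122 of hepatocytes was highest in liver, and in the other organs it reached 0.0790% to 0.225% of its liver level. Mir1a-1 of striated muscle reached 0.0715% to 0.345% of its heart level elsewhere, and Mir128-1, abundant in neurons, 0.274% to 1.67% of its brain level. Ftsj1 itself is read as an mRNA and was not counted in these tables, which therefore hold no check of the genotypes.

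Leukocyte and inflammation precursors were most abundant in spleen. Together the 8 made up 3.56% of the normalized counts in spleen, 0.324% in heart, 0.206% in kidney, 0.177% in brain and 0.135% in liver. The spleen share was 11.0 times that of heart and 26.3 times that of liver. The distance to liver depended on the scaling: it was 18.5-fold when the 10 most abundant features were left out of the totals and 12.4-fold with the organs scaled by the median ratio of their features, and brain was then the lowest organ under both. Without the Mir142b row the shares were 3.20%, 0.310%, 0.196%, 0.175% and 0.123% in the same order of organs. All 7 counted members were highest in spleen, and this held under each of the other scalings tried. Neighbouring organs are said to stand apart where the 95% interval of the difference of their log2 levels leaves out 0, the error of a log2 level being taken as the deposited standard error of the fold change divided by 2. These orders are descriptions, since the members were known to differ between organs when they were chosen.

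Mir150, which in lymphocytes targets the transcription factor Myb, reached 10937 CPM in spleen. It stood at 1185 CPM in heart, 558 in brain, 124 in kidney and 67.5 in liver. All neighbours in this order stood apart. The spleen level was 9.23 times that of heart and 162 times that of liver, and 76.3 times that of liver under the median-ratio scaling, where kidney and liver did not stand apart. In spleen its row was the 18th most abundant of all features.

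Mir342, which is expressed in several immune lineages and also outside the blood, was the flattest of the abundant members. Its level was 1488 CPM in spleen, 734 in brain, 213 in heart, 76.8 in liver and 62.5 in kidney. Liver and kidney did not stand apart, and the other neighbours did. Under the median-ratio scaling liver was 2.04 times kidney and stood apart from it. The spleen level was 2.03 times that of brain and 23.8 times that of kidney. Over brain it was 2.87 times by the median ratio and 3.19 times without the 10 most abundant features. Mir150 and Mir342 thus did not keep a fixed proportion: the ratio of Mir150 to Mir342 was 7.35 in spleen and 5.58 in heart, against 1.98 in kidney, 0.878 in liver and 0.760 in brain.

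Mir155 is processed from a non-coding transcript that B cells, T cells and macrophages induce on activation. Its level was 1952 CPM in spleen, 335 in heart, 114 in kidney and, lower still, 18.3 in liver and 10.6 in brain, and every neighbour stood apart. The spread between spleen and brain was 185-fold, and 289.9-fold without the 10 most abundant features. Kidney was 6.20 times liver in Mir155, and 3.73 times with the organs scaled by the median ratio of their features.

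Mir223, the granulocyte and monocyte microRNA, was at 1826 CPM in spleen, 322 in heart, 135 in liver, 102 in kidney and 21.0 in brain. Liver and kidney did not stand apart, although liver was 2.19 times kidney and stood apart from it under the median-ratio scaling. Spleen was 5.67 times heart and 87.0 times brain, and 137 times brain without the 10 most abundant features. The ratio of Mir150 to Mir223 was 26.6 in brain, 5.99 in spleen, 3.68 in heart, 1.21 in kidney and 0.499 in liver. Liver was the organ in which Mir223 exceeded Mir150, and brain the organ in which it lay farthest below. In brain Mir150 stood at 5.10% of its spleen level and Mir223 at 1.15%, and the Mir142b row at 0.447%. The cells that carried these counts were not identified, so the ratio is not a measure of lymphocytes against myeloid cells.

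Mir142b, which carries the reads of the Mir142 locus that were counted at all, showed the largest step of the 7 members between spleen and the next organ. It stood at 3671 CPM in spleen, 137 in heart, 122 in liver, 106 in kidney and 16.4 in brain. The spleen level was 26.7 times that of heart and 224 times that of brain. Heart did not stand apart from liver, nor liver from kidney, while kidney stood apart from brain. Under the median-ratio scaling the next organ was liver, which stood apart from heart, and spleen was 14.2 times as high. Without the 10 most abundant features spleen was 352 times brain.

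Mir146, induced through NF-kB in macrophages and T cells, was the most abundant member in spleen, kidney and liver. Its level was 15759.9 CPM in spleen, 1551 in kidney, 1044 in heart, 934 in liver and 424 in brain. Kidney stood apart from heart, heart did not stand apart from liver, and liver stood apart from brain. Spleen was 10.2 times kidney and 37.2 times brain, and 58.4 times brain without the 10 most abundant features. Under the median-ratio scaling kidney and liver did not stand apart. Kidney and liver carried 12.5 and 13.8 times as much Mir146 as Mir150, against 1.44 times in spleen, 0.881 times in heart and 0.760 times in brain.

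Mir146b, whose product has the same seed as miR-146a-5p, was the scarcest counted member in every organ. It stood at 10.6 CPM in spleen, 7.20 in brain, 1.52 in kidney, 1.08 in heart and 0.400 in liver. Spleen did not stand apart from brain, nor kidney from heart, nor heart from liver. The fold of spleen over brain was 1.47, and 2.08 by the median ratio and 2.31 without the 10 most abundant features, where the organs stood apart. Spleen was 26.4 times liver, and 12.4 times by the median ratio. In brain Mir146b amounted to 1.70% of Mir146, against 0.103% in heart, 0.0978% in kidney, 0.0671% in spleen and 0.0428% in liver. The 2 mature sequences differ at 2 of 22 bases, and how the authors' counting treated reads that match both genes is not given in the sources used here.

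**Figure D2:**
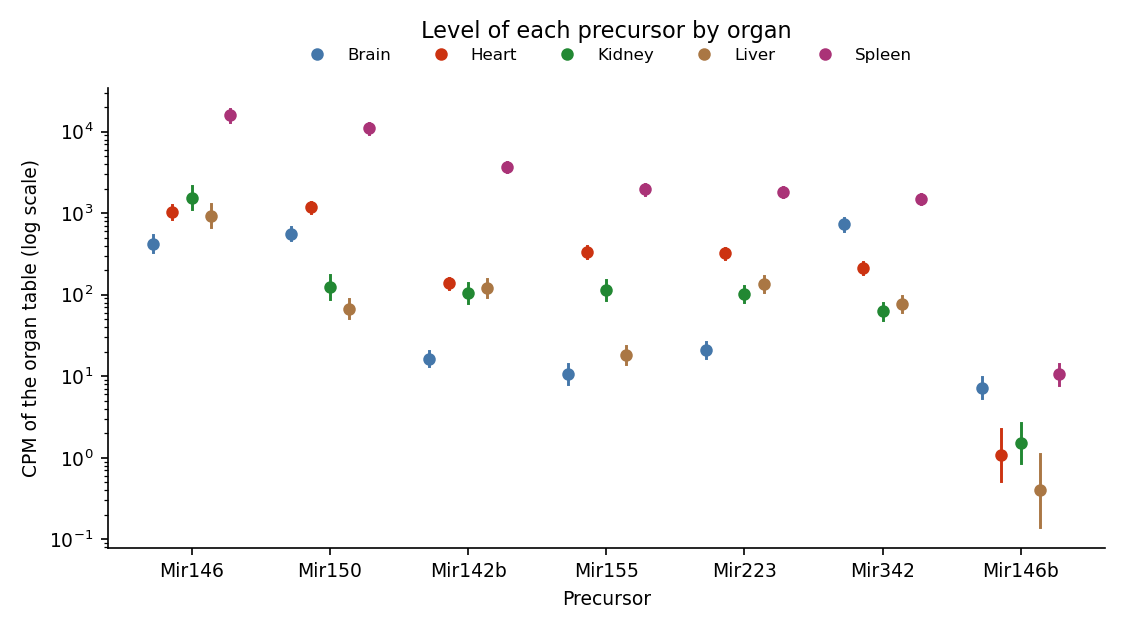
Level of each counted precursor in brain, heart, kidney, liver and spleen, in CPM on a log scale. Points are levels and bars are 95% intervals; every precursor is highest in spleen, by 26.7-fold for Mir142b and by 1.47-fold for Mir146b.

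The make-up of the group differed between organs. Mir146 and Mir150 together led in spleen, with 44.2% and 30.7% of the group's summed counts. Kidney and liver were dominated by Mir146, at 75.3% and 69.0%. Heart was divided between Mir150 at 36.6% and Mir146 at 32.3%, followed by Mir155 at 10.3% and Mir223 at 9.95%. Brain was led by Mir342 at 41.4%, with Mir150 at 31.5% and Mir146 at 23.9%, while Mir155, Mir223, Mir142b and Mir146b were each at 1.18% or less.

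**Figure D3:**
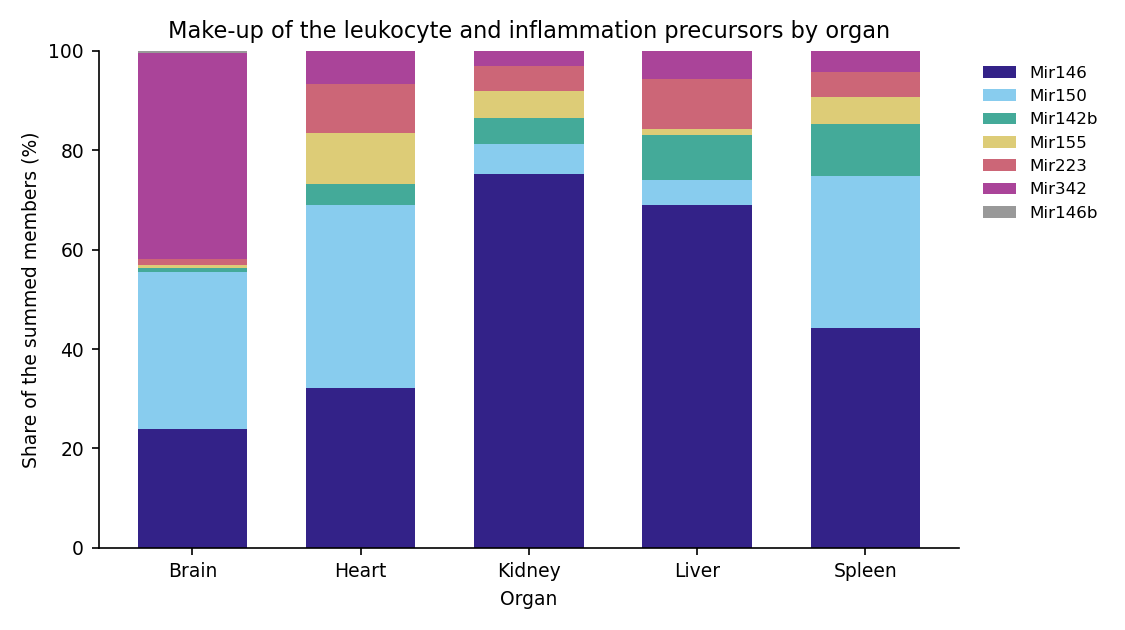
Share of each precursor in the summed normalized counts of the group, in percent, stacked per organ. Mir146 takes 75.3% in kidney and 69.0% in liver, Mir342 takes 41.4% in brain, and heart and spleen hold most of their counts in Mir150 and Mir146.

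Levels outside the spleen ran from a small remainder to a large part of the spleen level. Brain held 0.447% of the spleen level of Mir142b, 0.542% of that of Mir155 and 1.15% of that of Mir223. It held 5.10% of the spleen level of Mir150, 49.3% of that of Mir342 and 68.1% of that of Mir146b. For scale, Mir1a-1 in brain stood at 257 CPM against 74513 in heart, and Mir122 in brain at 242 CPM against 261607 in liver. Heart held 17.6% of the spleen level of Mir223 and 17.1% of that of Mir155. Mir144, a red-cell microRNA, was at 2281 CPM in heart, against 1394 in spleen, 891 in liver, 808 in kidney and 71.3 in brain. Blood left in the organs was not measured, and its part in these levels was not tested.

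No member was called between Ftsj1_DF and WT in any organ at the authors' adjusted p below 0.05. In brain 0 of 7 counted members passed in the authors' deposited DESeq2 table, where 0% of all tested features passed. In heart 0 of 6 members with an adjusted p passed, against 1.13% of features. Kidney had 0 of 7 against 0%, liver 0 of 7 against 0.229%, and spleen 0 of 7 against 0%. At an unadjusted p below 0.05 the authors' deposited tables held 1 member in heart, Mir150, where 5.33% of features passed. They held 0 members in brain, kidney, liver and spleen, where 2.23%, 4.5%, 3.9% and 3.48% of features passed.

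Mir150 was the member on the same side of 0 in all 5 organs. The authors' deposited tables give log2 fold changes of -0.51 in heart (standard error 0.23), -0.80 in kidney (standard error 0.51), -0.16 in liver (standard error 0.41), -0.12 in spleen (standard error 0.22) and -0.01 in brain (standard error 0.26). In heart the deposited DESeq2 p was 0.0250 and the adjusted p 0.317, and the 95% interval of the log2 fold change ran from -0.95 to -0.06. The batch-2 library among the WT hearts could not be identified in the table, and its part in this value was not tested. In kidney the DESeq2 adjusted p in the authors' deposited table was 0.975. In spleen, where Mir150 had 117429.9 normalized counts on average, the 95% interval reached a fold of at most 1.46 in either direction.

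Mir342 was negative in 4 of 5 organs. Its deposited log2 fold change was -0.30 in heart (standard error 0.24), and the authors' deposited table lists a DESeq2 adjusted p of 0.670 for it. In the other organs the authors' deposited values lay between -0.19 in kidney and 0.16 in liver. In spleen its 95% interval reached a fold of at most 1.35 in either direction.

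Mir155 was negative in 4 organs and positive in liver. The authors' deposited log2 fold change was -0.50 in brain (standard error 0.42) and 0.38 in liver (standard error 0.38), and between -0.26 and -0.05 in kidney, heart and spleen. Of the 70 differences between organs computed for the members, this pair of values gave the smallest p, 0.123 before adjustment, for a difference of -0.88 (standard error 0.57) of brain minus liver. Its adjusted p was 0.999 in the z test over 734 features.

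Mir223 was within 0.14 of 0 on the log2 scale in brain, heart, kidney and liver. In spleen the authors' deposited log2 fold change was 0.32 (standard error 0.21), the highest of the 7 members there, and the DESeq2 adjusted p was 0.988. Mir223 was the member on the positive side in spleen, and the other 6 were negative.

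Mir142b was positive in 4 of 5 organs. The authors' deposited log2 fold change was 0.59 in kidney (standard error 0.41), 0.47 in brain (standard error 0.32), 0.45 in liver (standard error 0.38) and 0.20 in heart (standard error 0.24), against -0.02 in spleen (standard error 0.22). The smallest DESeq2 adjusted p of these in the authors' deposited tables was 0.835, in heart. In spleen, where the row was most abundant outside Mir146 and Mir150, the interval reached a fold of at most 1.37.

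Mir146 was negative in 4 organs, from -0.48 in brain (standard error 0.35) to -0.12 in spleen (standard error 0.26), and 0.10 in kidney (standard error 0.49) in the authors' deposited tables. Mir146b was positive in 4 organs and negative in spleen, at 1.18 in liver (standard error 1.53), 1.04 in heart (standard error 1.07), 0.91 in kidney (standard error 0.85), 0.37 in brain (standard error 0.44) and -0.42 in spleen (standard error 0.43) in the authors' deposited tables. The seed-sharing pair thus had opposite signs in brain, heart and liver, and the 95% interval of each of these values took in 0. Mir146b in heart is listed with no adjusted p.

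**Figure D4:**
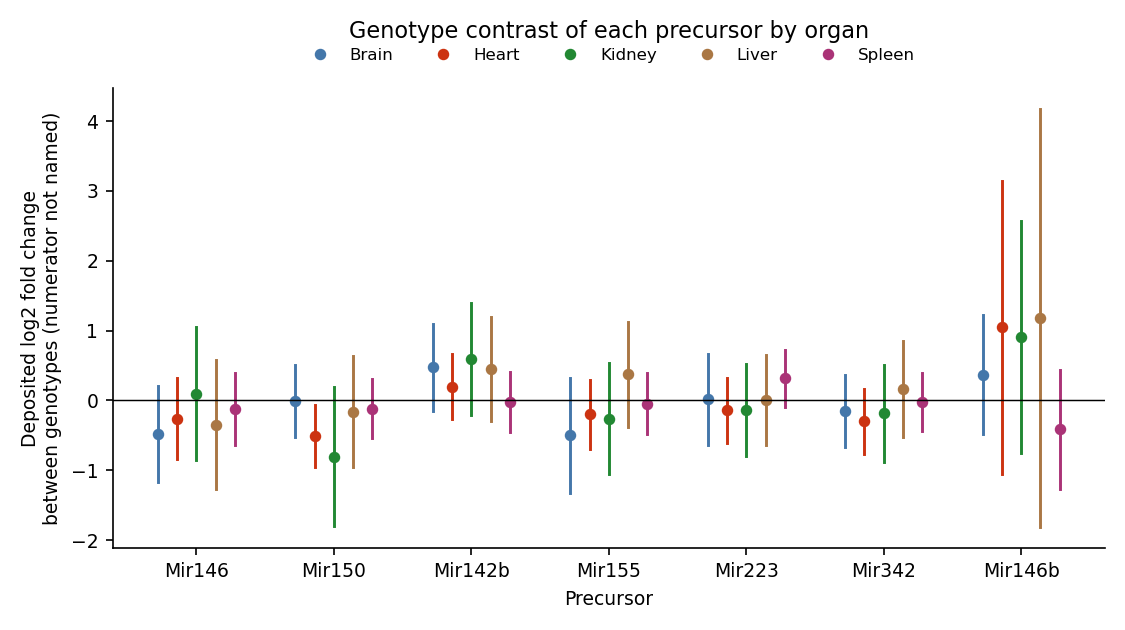
Deposited log2 fold change between the genotypes, with the numerator not named, for each precursor in brain, heart, kidney, liver and spleen. Points are the authors' values and bars are 95% intervals from the deposited standard errors; Mir150 in heart is the value whose bar stays below 0, and Mir146b has the widest bars.

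The signs of the members within an organ were mixed. Of the 7 counted members 1 was positive and 6 negative in spleen, 2 and 5 in heart, 3 and 4 in kidney and in brain, and 5 and 2 in liver. Their median deposited log2 fold change was -0.05 in spleen, -0.20 in heart, -0.14 in kidney, -0.01 in brain and 0.16 in liver. Over all tested features the medians were 0.00, 0.16, 0.04, -0.01 and 0.06 in the same order. The heart is the organ where members and features lay farthest apart, with 57.9% of its 1107 tested features on the positive side.

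Fold changes of the members did not differ between organs beyond their errors. Over 10 pairs of organs and 7 members, 0 of 70 differences passed an adjusted p of 0.05 in the z test over all features, and 0 had an unadjusted p below 0.05. Adjusted p values ran from 0.989 to 1.00. Over all features 0% passed in 9 pairs and 0.134% in the pair of kidney and liver, where 1.74% had an unadjusted p below 0.05. The share with an unadjusted p below 0.05 was 2.27%, 3.26%, 3% and 2.29% for brain against heart, kidney, liver and spleen, 2.05%, 2.44% and 2.92% for heart against kidney, liver and spleen, 4.09% for kidney against spleen and 3.16% for liver against spleen. The largest difference for Mir150 relative to its error was 0.50 (standard error 0.35) for brain minus heart, with a 95% interval of -0.18 to 1.18. For Mir223 it was -0.45 (standard error 0.32) for heart minus spleen, and for Mir142b 0.61 (standard error 0.46) for kidney minus spleen. The test treats organs as independent, although they came from the same 6 mice.

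For the scarcer members the deposited means were precise enough to be split back into whole reads per library. This could be done for 9 of the 35 values above 0, those with a mean below 350, and each split was the only one that also gave the deposited fold change. It places 3 libraries on the side that a positive fold change favours (positive side) and 3 on the other (negative side), and it does not tell which side is Ftsj1_DF. With 3 against 3 libraries the exact two-sided permutation test cannot go below p = 0.1.

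Mir142b in brain was the 1 value of the 9 split whose sides did not overlap. Its normalized counts were 332, 348 and 241 on the positive side, against 219, 219 and 227 on the negative side, from 1817 reads in all. The mean of 307 ± 57.7 (SD, n = 3) was 1.38 times that of 222 ± 4.63 (SD, n = 3), and the exact permutation p was 0.1, the smallest possible. No feature was called in brain, where 0% passed the adjusted p. Any value whose sides do not overlap has this p of 0.1, so 1 such value among 9 is not read as a difference. The share of all features whose sides do not overlap was not computed, so the separation of Mir142b cannot be set against it.

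Mir155 in brain had 84.7, 156 and 184 normalized counts on the positive side, against 139, 188 and 272 on the negative side. The lowest of the 6 libraries was on the positive side and the highest on the negative side, and the sides overlapped (exact permutation p = 0.4). In liver Mir155 had 299, 379 and 500 normalized counts on the positive side, against 252, 296 and 358 on the negative side. These sides overlapped as well, with an exact permutation p of 0.2. In liver the size factors, which measure library depth, were at most 0.729 on the positive side and at least 1.45 on the negative side. Depth and side can thus not be told apart there, and this touches every liver value above.

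Mir223 in brain was the steadiest of the split values, with 322, 343 and 355 normalized counts on the positive side, against 369, 418 and 222 on the negative side. The low library of the negative side offset the other two, and the means were 339.9 and 336. The exact permutation p was 1.0, the largest possible.

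Mir146b could be split in all 5 organs. In brain it had 184, 104 and 103 normalized counts on the positive side, against 102, 76.1 and 127 on the negative side, so that 1 library of the positive side stood above the rest. Without that library the log2 ratio of side means in brain was 0.02, against 0.36 with it. In spleen it had 84.1, 101 and 107 on the positive side, against 106, 79.8 and 204 on the negative side, so that here 1 library of the negative side stood apart. Leaving that library out gave a log2 ratio of side means in spleen of 0.07, against -0.42 with it.

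In kidney Mir146b rested on 42, 84 and 22 reads on the positive side, against 46, 10 and 14 reads on the negative side. In heart it rested on 22, 11 and 7 reads, against 8, 4 and 6, and in liver on 5, 10 and 4 reads, against 5, 1 and 16. The heart libraries gave 9.30, 15.9 and 11.6 normalized counts on the positive side, against 3.50, 5.43 and 9.34 on the negative side, which overlap by a single library. Exact permutation p values for Mir146b were 0.4 in brain, 0.2 in heart, 0.3 in kidney and liver, and 0.7 in spleen. The totals were 41 reads in liver and 58 in heart, and the 95% intervals of the deposited fold change reached a fold of 18.0 in liver and 8.81 in heart.

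**Figure D5:**
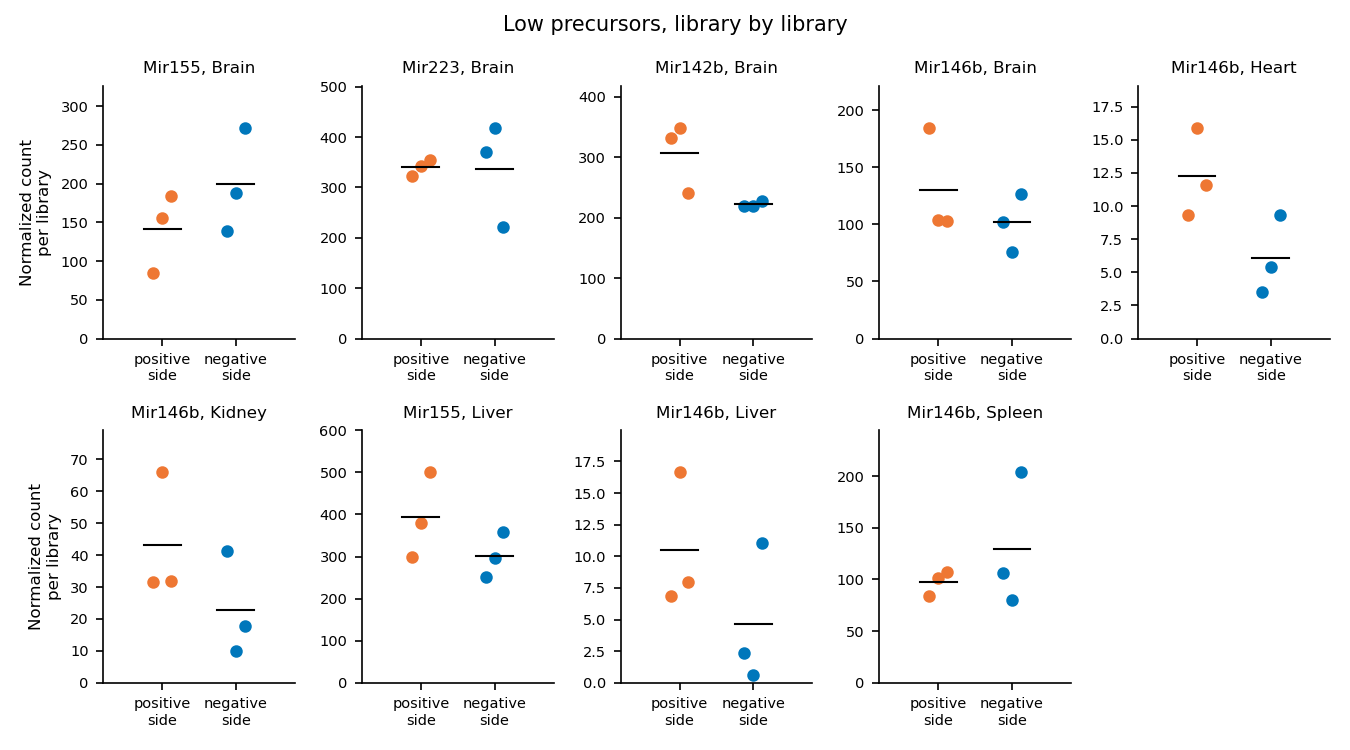
Normalized count per library for the 9 values that could be split into whole reads, with the 3 libraries of the positive side left and the 3 of the negative side right in each panel, every axis starting at 0. Black lines are side means; the sides do not overlap for Mir142b in brain, and overlap in the other 8 panels.

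Other microRNAs linked to lymphocytes, myeloid cells or NF-kB, taken as lists, likewise held no member past the authors' adjusted p in any organ. They are not confined to these cells: Mir181a-1 stood at 19490 CPM in brain against 6095 in spleen, and Mir9-2 at 61631 against 190. Others, such as Mir15b at 112 against 2800, were higher in spleen. Their signs are therefore not readouts of leukocytes alone. The lymphocyte list held 20 rows of the miR-181, miR-17/92, miR-15/16 and miR-29 families. It takes close relatives such as Mir181a-1 and Mir181a-2 separately, so the signs of its rows are not independent. Of the 20 rows, 8 were positive and 12 negative in spleen, 19 and 1 in heart, 15 and 5 in kidney and in brain, and 7 and 13 in liver. Their medians in the authors' deposited tables were -0.01 in spleen, 0.16 in heart, 0.24 in kidney, 0.17 in brain and -0.06 in liver. Over all tested features, 50.1% were positive in spleen, 57.9% in heart, 51.9% in kidney, 49.2% in brain and 52.2% in liver. At an unadjusted p below 0.05 the lymphocyte list held Mir19b-1 in heart, Mir181d in kidney, and Mir181b-1 and Mir19b-1 in spleen. These were 1 of 20 in heart, 1 of 20 in kidney and 2 of 20 in spleen, where 5.33%, 4.5% and 3.48% of all features passed. Its most abundant members were Mir29a and Mir16-2, for which the authors' deposited table of spleen gives log2 fold changes of 0.08 and -0.10, each with a standard error of 0.21. The list made up 6.89% of counts in spleen, 6.43% in brain, 3.89% in heart, 3.21% in kidney and 2.93% in liver.

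Of 16 myeloid and NF-kB-induced microRNAs 15 were counted, with 7 positive and 8 negative in brain, heart and liver, 8 and 7 in kidney, and 14 and 1 in spleen. Their medians in the authors' deposited tables were 0.23 in spleen, -0.03 in heart, 0.12 in kidney, -0.02 in brain and -0.01 in liver. In spleen 50.1% of all tested features were positive. The count there takes close relatives such as Mir9-2 and Mir9-3 separately and includes scarce rows. Its negative row, Mir24-2, had a mean normalized count of 3.80 and a standard error of 1.81. Mir24-2 is the longer hairpin around Mir3074-2 on the opposite strand. How such overlapping rows were counted is not given, so its count cannot be read as the level of miR-24. Mir21a, induced in activated myeloid cells and abundant in many others, had 0.10 (standard error 0.23) in spleen and 0.33 (standard error 0.21) in heart in the authors' deposited tables. Mir9-2, a second abundant member and mostly a neural microRNA, had -0.35 (standard error 0.26) in brain. At an unadjusted p below 0.05 the list held Mir125a in brain, heart and kidney, Mir125b-1 in brain, kidney and liver, Mir125b-2 in kidney, Mir147 in heart and Mir132 in spleen. These were 1 of 15 in spleen, 2 of 15 in heart, 3 of 15 in kidney, 2 of 15 in brain and 1 of 15 in liver, where 3.48%, 5.33%, 4.5%, 2.23% and 3.9% of all features passed.

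Markers of other cell types were read beside the members. For Mir144 of red cells the authors' deposited tables give log2 fold changes of -0.22 in spleen (standard error 0.29), 0.21 in heart (standard error 0.20), 0.32 in kidney (standard error 0.40), -0.13 in brain (standard error 0.31) and 0.36 in liver (standard error 0.55). Mir486 was below 6 CPM throughout. Mir451a and Mir451b, which occupy the same span on opposite strands, were both listed at 0. How such overlapping rows were counted is not given, so these values cannot be read as absence of the microRNA. Mir126a of endothelium lay between -0.01 in brain and 0.68 in kidney (standard error 0.41), and Mir126b was listed at 0. Smooth muscle and fibroblast microRNAs, led by Mir143 and Mir145a, had medians of 0.06 in spleen, -0.21 in heart, -0.16 in kidney, 0.14 in brain and -0.36 in liver. In the authors' deposited tables Mir143 was at -0.47 in spleen (standard error 0.30) and at 0.63 in kidney (standard error 0.45). Mir122 of hepatocytes was at -0.65 in liver (standard error 0.51), Mir128-1 and Mir128-2 of neurons at 0.03 and -0.70 in brain, and Mir1a-1 and Mir133a-1 of striated muscle at -0.05 and 0.06 in heart, in the authors' deposited tables. None of these lists held a member with an unadjusted p below 0.05. Beside -0.80 for Mir150 in kidney, the lymphocyte list had 15 positive and 5 negative rows there. That list is not confined to lymphocytes, and it made up 6.43% of counts in brain against 6.89% in spleen. The smooth muscle and fibroblast list had 2 positive, the abundant Mir143 among them, and 5 negative. The part of cell composition in the kidney value of Mir150 was not tested.

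The microRNAs whose profile over the 5 organs was most like that of a member were named by the smallest distance of centred log2 levels among 354 microRNAs with a mean of at least 100 in 1 organ. For Mir223 these were Mir15b (distance 1.31), Mir92-2 (1.57) and Mir142b (1.60), and for Mir142b they were Mir223 (1.60), Mir146 (1.94) and Mir3964 (2.58). Mir3964, Mir106a and Mir18 lay nearest to Mir146, at 1.10 to 1.58. Outside spleen Mir3964 lay between 0.0966 CPM in brain and 0.586 CPM in liver. These levels are below the 1 CPM added to each level before the log, which therefore shapes its profile. Mir342 and Mir146b had their nearest profiles in Mir130b (1.03) and Mir669o (0.83), which were high in both brain and spleen. Mir155 lay nearest to Mir6236 and Mir6240, both at a distance of 2.00 or less, and Mir150 had no neighbour closer than Mir211, at 2.23. These distances rest on 5 values each and describe levels alone.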

How the data were processed

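Small RNA libraries were made from 5 organs of 6 mice. Per the submitters' processing notes, featureCounts (Subread 2.0.3) counted the reads on GRCm39 and DESeq2 compared the genotypes. The sources used here do not give the aligner, annotation, strand setting or model. Per the file headers, the authors' mean is a signal, namely counts over size factors averaged across libraries. Fold changes and standard errors were deposited as log2 values. The deposited Wald statistic is a score made by dividing them. Each deposited p-value, adjusted or not, comes from that statistic. No column of values for single samples was left unused (0 columns).

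Members were taken by symbol, and companion microRNAs from lists, of which the 2 most abundant members were named, besides those with an unadjusted p below 0.05. Both were chosen with earlier results of these data known. Planned members Mir486b, Mir124-1, Mir124-2 and Mir124-3 were matched to no row and are not analysed here. A member was called at a deposited adjusted p below 0.05. Fold changes of 2 organs were compared by a z test over all shared features with Benjamini-Hochberg adjustment. For likeness, 3 microRNAs per member were taken at a pseudocount of 1 CPM (counts per 1000000).

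Size factors of the 6 libraries were solved from means below 1, which are sums of whole reads over those factors, at a tolerance of 1e-11. A model of 2 groups without a batch term was fitted to low features at the deposited standard error to set the sides. It gave the deposited log2 fold change to within 1e-05 for 6 of 7 features in brain, 2 of 2 in heart and in kidney, 4 of 4 in liver and 8 of 8 in spleen, and no other division of the libraries gave any. Other features were split into reads by the same 2 conditions. The split was tested on simulated data of low features with the size factors of brain alone. Means near the limit of 350 and the factors of the other organs were not simulated. With 3 libraries of each genotype in an organ, precision is limited by their number, by the spread between libraries and by read totals of scarce members. Replicates were separate mice. The batch-2 libraries could not be identified in the tables, so no value within a batch can be given, and the batch held WT libraries only. Sequences came from RefSeq (GRCm38.p6) by gene ID or symbol and no coordinates were used. Alternatives were other adjustments, other scalings of the level and leaving out each library of a split value. Python 3.11.15, numpy 2.4.6, pandas 2.3.3 and scipy 1.17.1 were used.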

Additional observations from a re-analysis of the deposited data

How the results depend on the processing

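At an unadjusted p below 0.05 in place of the adjusted p, heart held 1 member, Mir150, against 0, and the other organs kept 0. Adjusted p values of the members under 4 other adjustments stayed above the threshold in all 135 cases, the lowest being 0.353 for Mir150 in heart, whose range was 0.353 to 0.875. Counts of differences between organs stayed at 0 with the plain sum of standard errors and with a mean of at least 10. All 7 counted members were highest in spleen under the 3 other scalings. Scaling by the median ratio over 326 features shifted log2 levels by -0.71 in brain to 0.88 in liver and moved 13 of 35 levels by more than 1 SD between libraries (the deposited standard error divided by 2, times the square root of 6), leaving out the 10 most abundant features moved 34, and counting Mir and Mirlet features alone moved 0. Of the 21 nearest profiles, 11 remained at a pseudocount of 10 and 19 with a mean of at least 10. Leaving out each library in turn, which was added after seeing the data, gave log2 ratios of side means of 0.37 to 0.62 for Mir142b in brain, -0.73 to -0.21 for Mir155 in brain, 0.17 to 0.54 for Mir155 in liver and -0.21 to 0.20 for Mir223 in brain. For Mir146b the ranges were 0.02 to 0.55 in brain, 0.73 to 1.46 in heart, 0.47 to 1.64 in kidney, 0.65 to 2.82 in liver and -0.67 to 0.07 in spleen, so that Mir223 in brain and Mir146b in spleen changed sign. No paired analysis was possible because the tables carry no values per sample and no mouse numbers, so the brothers could not be matched across genotypes. The cause of these changes was not tested. Read totals behind Mir146b were 58 in heart and 41 in liver.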
